A study of Rattus norvegicus with 9 samples.

Results

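The miR-101 family of the rat retina is represented here by 3 of the 465 mature miRNAs measured: rno-miR-101a-3p, rno-miR-101b-3p and rno-miR-101a-5p (the species prefix is dropped from here on). The members were chosen by name, as every entry named miR-101a or miR-101b in either arm, and the family was selected on the raw counts of these 9 libraries, which were already known. Its levels and folds are therefore given as a description with their errors, and no p-value is attached to a member. All animals were wild-type Sprague Dawley rats, and small RNA from dissected retina was sequenced in 3 groups of 3 libraries. OIR P29 retinas came from animals with oxygen-induced retinopathy at postnatal day 29, OIR P14 retinas from animals with the retinopathy at postnatal day 14, and sham P14 retinas from control animals at postnatal day 14. The model stands for the retinopathy of premature infants: altered oxygen after birth halts the growth of retinal vessels, and abnormal vessels form later. A sham group at postnatal day 29 is not analysed here, so age and stage of the model cannot be told apart wherever OIR P29 is set against OIR P14. The labels speak of biological triplicates without saying how many animals a library held.

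A miRNA is cut from a hairpin precursor, and usually 1 of its arms is kept in the silencing complex, where the seed near the 5′ end pairs with target mRNAs. Mammals make miR-101 from a pair of genes whose 3p arms carry the same seed. The best known target of miR-101 is Ezh2, the histone methyltransferase of the Polycomb repressive complex, and Ptgs2, the gene of cyclooxygenase 2, is another that has been reported repeatedly. In cultured human endothelial cells miR-101 has been linked to hypoxia, to the ubiquitin ligase scaffold Cul3 and to production of the vessel growth factor Vegfa.

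The mature sequences are shown because the family turns on them: both 3p arms have the same seed, while the 5p arm has another. Bases 2 to 8, the seed, are in capitals, and all sequences are from RefSeq on build GRCr8.
miR-101a-3p: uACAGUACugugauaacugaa
miR-101b-3p: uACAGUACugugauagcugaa
miR-101a-5p: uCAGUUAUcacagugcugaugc
miR-144-3p: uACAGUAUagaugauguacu
The 3p arms are each 21 bases long and are identical at 20 of them. The single difference is A16G, counted from 1 at the 5′ end with the base of miR-101a-3p first, and it lies outside the seed. Of the 465 names, 423 were matched to a RefSeq mature sequence, and among those only the 3p arms of miR-101 held that seed at bases 2 to 8. Relaxing the match to bases 2 to 7 added miR-144-3p, a miRNA abundant in red blood cells, whose first 7 bases are those of miR-101a-3p. No other matched name had the seed of miR-101a-5p.

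The precursors show which arms were counted and which gene each came from, with the annotated mature arms in capitals.
Mir101a hairpin: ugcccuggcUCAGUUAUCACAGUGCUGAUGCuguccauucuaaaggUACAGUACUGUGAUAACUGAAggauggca
Mir101-2 hairpin: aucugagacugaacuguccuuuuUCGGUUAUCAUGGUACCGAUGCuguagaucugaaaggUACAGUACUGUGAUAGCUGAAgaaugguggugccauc
The Mir101a hairpin lies at chr5:121081683-121081757 on the minus strand of GRCr8, within the span of the long noncoding RNA gene LOC120102934. The Mir101-2 hairpin, which gives miR-101b, lies at chr1:236273922-236274018 on the plus strand, within the span of Rcl1, a gene of ribosomal RNA processing. The labels and tables do not name the build that the authors used, and these positions belong to the RefSeq sequences alone. Both loci have a Janus kinase gene and an adenylate kinase gene close by: Jak1 and Ak4 lie on either side of Mir101a, and Jak2 and Ak3 on either side of Rcl1. Each precursor has 15 bases between its arms. The 5p arms match at 17 of 22 positions, so they differ more than the 3p arms do, and miR-101b-5p is not analysed here.

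Library totals ran from 13088233 to 13973950 counts in OIR P29, from 12694068 to 15260603 in OIR P14 and from 11808893 to 12568341 in sham P14. miR-182, a miRNA of photoreceptors, took 59.3 to 68.1% of the counts of a library, and all markers of photoreceptors (3 of 3), neurons (3 of 3) and pigment epithelium (2 of 2) were detected in every group. OIR P29 library 47 stood apart in the 3 markers of surface epithelium, at 1943 CPM summed, where the other libraries ran from 24.6 to 148 CPM. Because miR-182 fills so much of a library, levels are given in CPM, counts normalized for library size with trimmed-mean (TMM) scaling over the 9 libraries, which gives less weight to extreme miRNAs. Libraries are named by the codes of the deposited tables. Counting errors given below treat reads as independent, since the labels mention no molecular identifiers.

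miR-101a-3p made up most of the family in every library. It had 31065, 31154 and 32589 counts in OIR P29 libraries 20, 21 and 47, which is 2249.8, 2160.0 and 2116 CPM. In OIR P14 libraries 11, 12 and 38 it had 19039, 19546 and 17468 counts, or 1472, 1531 and 1364 CPM. In sham P14 libraries 25, 27 and 51 it had 17154, 20132 and 17596 counts, or 1500.5, 1519 and 1429.6 CPM. All 3 OIR P29 libraries stood above every OIR P14 library, as did 30.2% of the 424 miRNAs tested. They also stood above every sham P14 library, for which the share of all miRNAs was not counted. The values of OIR P14 and sham P14 were mixed. By mean count it was the 26th most abundant miRNA in OIR P29, the 29th in OIR P14 and the 30th in sham P14.

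miR-101b-3p, which has the same seed, was several times scarcer, 69th by mean count in OIR P29, 62nd in OIR P14 and 65th in sham P14. It had 3787, 3959 and 4228 counts in OIR P29 libraries 20, 21 and 47, or 274.3, 274.5 and 274.5 CPM. OIR P14 libraries 11, 12 and 38 held 3280, 3150 and 2937 counts, or 254, 247 and 229 CPM. Sham P14 libraries 25, 27 and 51 held 2913, 3390 and 2957 counts, or 255, 256 and 240.2 CPM. The OIR P29 values were again the highest, but by a small margin over sham P14 libraries 25 and 27. Against sham P14 the share of all miRNAs was not counted. Of the 424 miRNAs tested, 30.2% stood above every OIR P14 library in OIR P29. The 3 OIR P29 values differed by less (coefficient of variation 0.0501%) than counting alone would give (1.58%), so their closeness is no measure of the true spread of that group.

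miR-101a-5p, the partner strand of miR-101a-3p, was scarce, 238th by mean count in OIR P29, 284th in OIR P14 and 294th in sham P14. Its counts were 146, 163 and 182 in OIR P29 libraries 20, 21 and 47, which is 10.6, 11.3 and 11.8 CPM. OIR P14 libraries 11, 12 and 38 had 75, 81 and 97 counts, or 5.80, 6.34 and 7.58 CPM. Sham P14 libraries 25, 27 and 51 had 77, 87 and 59 counts, or 6.74, 6.56 and 4.79 CPM. OIR P29 lay above OIR P14 without overlap, as did 30.2% of the 424 miRNAs tested, and OIR P14 overlapped sham P14. OIR P29 also lay above sham P14, where the share of all miRNAs was not counted. At such counts the counting error alone is 7.82% in OIR P29, 10.9% in OIR P14 and 11.6% in sham P14. The coefficients of variation between libraries were 5.56% in OIR P29, 13.9% in OIR P14 and 17.8% in sham P14, not far from counting error.

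**Figure D1:**
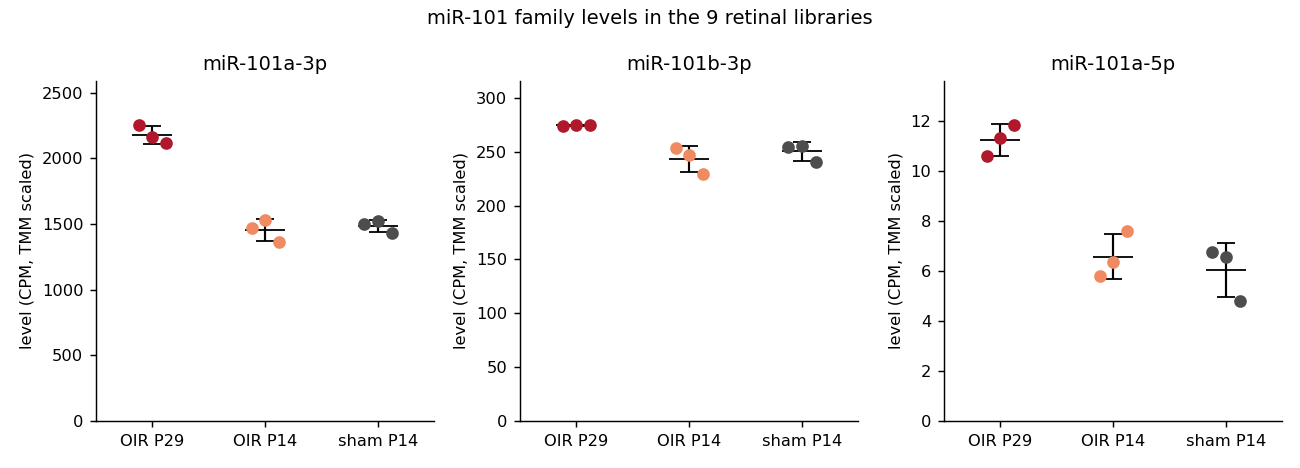
Level of each member in CPM (vertical axis, from 0) in the OIR P29, OIR P14 and sham P14 libraries. Points are libraries, and bars are the mean and SD of 3. miR-101a-3p and miR-101a-5p stand higher in OIR P29 (means 2175 and 11.2 CPM) than in OIR P14 (1456 and 6.57 CPM), whereas miR-101b-3p averages 274 CPM in OIR P29 and 243 CPM in OIR P14.

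Setting OIR P14 against sham P14 compares retinopathy with control retina at a single age. With TMM scaling the miR-101 family was at nearly the same level in both. miR-101a-3p averaged 1456 ± 84.5 CPM in OIR P14 and 1483 ± 47.2 CPM in sham P14, and miR-101b-3p averaged 243 ± 12.4 CPM in OIR P14 and 250.3 ± 8.70 CPM in sham P14 (SD, n = 3 each). miR-101a-5p averaged 6.57 ± 0.911 CPM in OIR P14 and 6.03 ± 1.08 CPM in sham P14 (SD, n = 3 each). The edgeR fit, which scales these 6 libraries on their own, gave a fold of 0.999 for miR-101a-3p with a 95% interval of 0.88 to 1.13. For miR-101b-3p the fold was 0.990 with an interval of 0.858 to 1.14, and for miR-101a-5p it was 1.11 with an interval of 0.832 to 1.49. The interval was widest for the scarce 5p arm.

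In CPM with TMM scaling none of the 3 members had groups that stood apart at P14, where 15.2% of the 415 miRNAs tested did. In CPM from library totals, without TMM, both 3p arms did, as did 26.7% of the 415: miR-101a-3p was at 1248 to 1376 in OIR P14 and 1453 to 1602 in sham P14, and miR-101b-3p at 215 to 231 in OIR P14 and 246 to 270 in sham P14. The whole table moved little in this comparison, with 1.69% of miRNAs called at adjusted p under 0.05 by the edgeR quasi-likelihood test (Benjamini-Hochberg). On the log2 scale the folds were -0.0012 ± 0.08 SE for miR-101a-3p, -0.01 ± 0.09 for miR-101b-3p and 0.15 ± 0.18 for miR-101a-5p, beside a median of -0.03 over all 415. Under scaling on totals alone, the median of all miRNAs shifted to -0.21, and the folds of the 3p arms shifted with it to -0.19 for miR-101a-3p and -0.20 for miR-101b-3p. Relative to the median of all miRNAs, the fold of miR-101a-3p stayed between -0.0042 and 0.08 and that of miR-101b-3p between -0.04 and 0.06 over 15 settings.

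OIR P29 was set against OIR P14 to follow the model over time, and this comparison uses the same OIR P14 libraries as the comparison at P14. Both strands made from Mir101a stood higher at P29. miR-101a-3p averaged 2175 ± 68.2 CPM in OIR P29 and 1456 ± 84.5 CPM in OIR P14 (SD of 3 libraries), a 1.47-fold difference with a 95% interval of 1.30 to 1.67. miR-101a-5p averaged 11.2 ± 0.625 CPM in OIR P29 and 6.57 ± 0.911 CPM in OIR P14 (SD of 3 libraries), a 1.68-fold difference with an interval of 1.36 to 2.08. miR-101b-3p, from the other gene, averaged 274 ± 0.137 CPM in OIR P29 and 243 ± 12.4 CPM in OIR P14 (SD of 3 libraries), 1.11-fold with an interval of 0.972 to 1.27 that includes no change.

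As log2 folds these were 0.56 ± 0.08 SE for miR-101a-3p, 0.75 ± 0.13 for miR-101a-5p and 0.15 ± 0.08 for miR-101b-3p. All 3 exceeded the spread between libraries of a group (SD 0.07, 0.15 and 0.05 on the same scale), although the tight OIR P29 values of miR-101b-3p make its spread small. All 3 members had OIR P29 libraries above all OIR P14 libraries, as did 30.2% of the 424 miRNAs tested. Much of the table differed between these ages: edgeR called 46.7% of miRNAs, 22.9% higher and 23.8% lower. Counted from the highest fold, miR-101a-5p was 57th, miR-101a-3p 78th and miR-101b-3p 159th of 424. Without OIR P29 library 47, the one high in surface epithelium markers, the log2 folds were 0.63 for miR-101a-3p, 0.77 for miR-101a-5p and 0.21 for miR-101b-3p. The authors' deposited table gave log2 folds of 0.58, 0.78 and 0.18 for miR-101a-3p, miR-101a-5p and miR-101b-3p in this comparison.

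**Figure D2:**
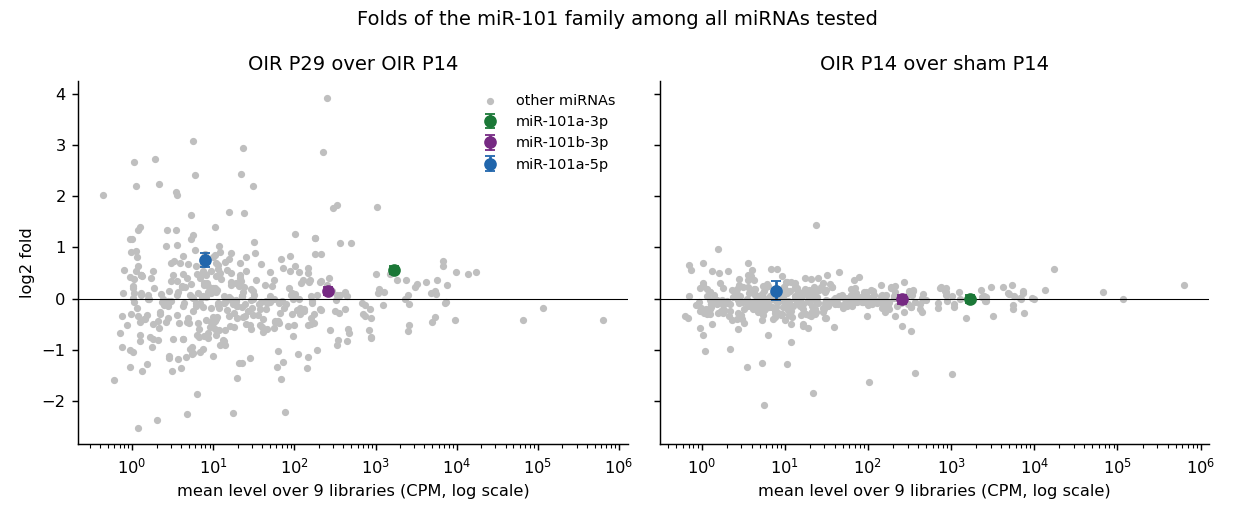
Log2 fold (vertical axis) against mean level over the 9 libraries (horizontal axis, CPM on a log scale), OIR P29 over OIR P14 on the left and OIR P14 over sham P14 on the right. Grey points are the other miRNAs tested and coloured points the members with their SE. On the right the 3p arms lie in the middle of the cloud and miR-101a-5p, at 0.15, above most of it; on the left the members lie at 0.56, 0.75 and 0.15, within the range of many other miRNAs.

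Changing the scaling moved all members together. Under scaling on library totals alone, the log2 folds at P29 were 0.83 for miR-101a-3p, 1.01 for miR-101a-5p and 0.42 for miR-101b-3p, while the median of all miRNAs shifted from -0.01 to 0.25. Relative to that median, miR-101a-3p lay between 0.52 and 0.60 over 15 settings, miR-101a-5p between 0.69 and 0.87 and miR-101b-3p between 0.12 and 0.21. Every setting kept the 3 folds positive and miR-101b-3p the smallest. In proportion to its size the fold of miR-101b-3p moved most when a library was left out, at 0.23 without OIR P14 library 11 and 0.10 without OIR P14 library 38.

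**Figure D3:**
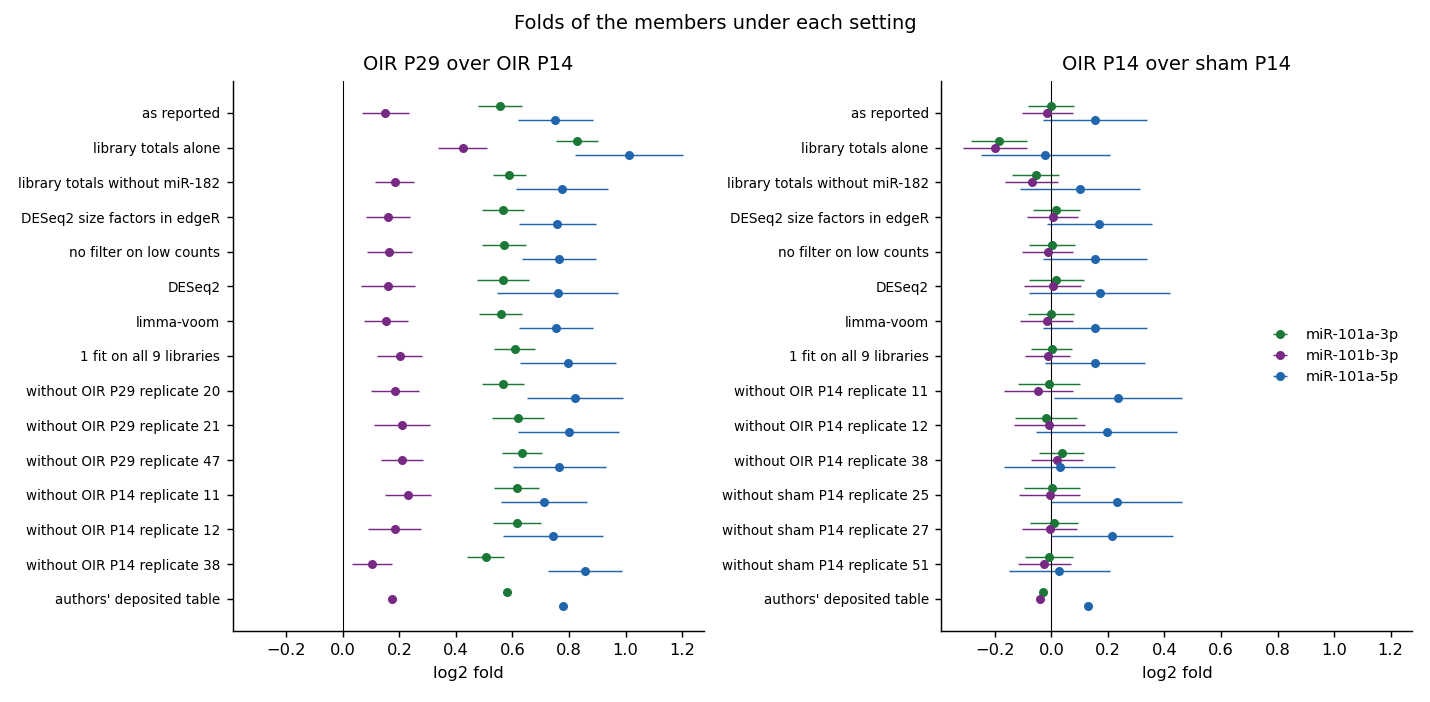
Log2 fold of each member (horizontal axis) under each setting (vertical axis), OIR P29 over OIR P14 on the left and OIR P14 over sham P14 on the right, with replicates named by library code and bars giving the SE where the fit has one. On the left miR-101a-5p and miR-101a-3p lie right of miR-101b-3p in every row, and on the right miR-101a-3p and miR-101b-3p lie close to 0 except with library totals alone.

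The ratio of the paralogs within a library does not depend on library scaling. miR-101a-3p had 8.20, 7.87 and 7.71 counts for each count of miR-101b-3p in OIR P29 libraries 20, 21 and 47. In OIR P14 libraries 11, 12 and 38 it had 5.80, 6.21 and 5.95, and in sham P14 libraries 25, 27 and 51 it had 5.89, 5.94 and 5.95. The OIR P29 ratios stood clear of the others, and the P14 groups overlapped. The means were 7.93 ± 0.253 in OIR P29 (8.04 without library 47), 5.99 ± 0.203 in OIR P14 and 5.93 ± 0.0328 in sham P14 (SD, n = 3 each). On the log2 scale the ratio was higher by 0.41 in OIR P29 than in OIR P14, against a spread of 0.05 within groups, and by 0.01 in OIR P14 than in sham P14. Accordingly miR-101b-3p gave 11.2% ± 0.314 of the reads with the miR-101 seed in OIR P29, 14.3% ± 0.413 in OIR P14 and 14.4% ± 0.0685 in sham P14 (SD, n = 3 each).

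Summed over both genes, the 3p arms stood at 2449.7 ± 68.1 CPM in OIR P29, 1699 ± 94.8 CPM in OIR P14 and 1733 ± 55.8 CPM in sham P14 (SD, n = 3 each). Of the difference between OIR P29 and OIR P14, 95.8% was miR-101a-3p and 4.16% miR-101b-3p. Equal folds would have split it as the OIR P14 levels were split, with 14.3% for miR-101b-3p, so most of the 95.8% goes with abundance. The family as a whole took 0.266% of the counts in OIR P29, 0.155% in OIR P14 and 0.177% in sham P14. How the authors' counting separates sequences that differ at 1 base is not stated by the labels or tables, and any reads assigned to the wrong paralog would change the ratio. Ratios between different sequences also hold any difference in how well each is ligated and amplified, which was not measured.

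**Figure D4:**
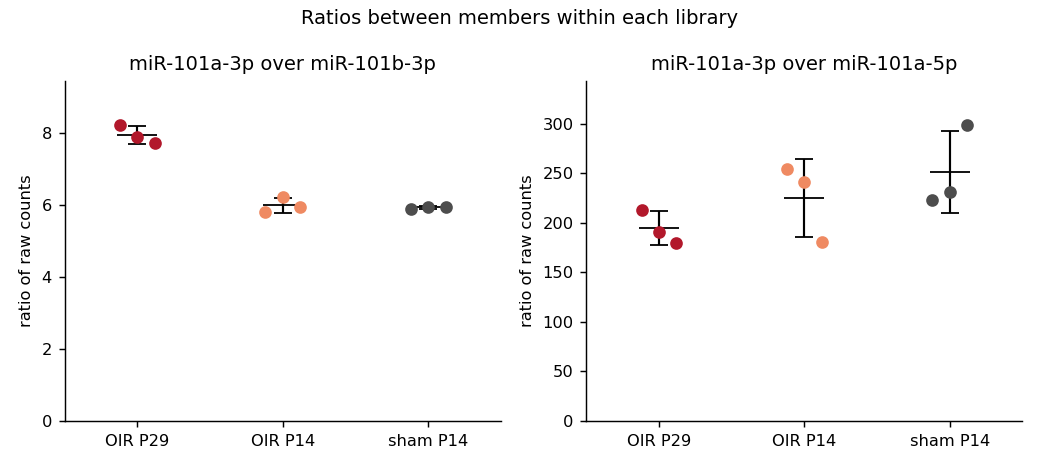
Ratio of raw counts within each library (vertical axes, from 0), miR-101a-3p over miR-101b-3p on the left and miR-101a-3p over miR-101a-5p on the right, in OIR P29, OIR P14 and sham P14. Points are libraries, and bars are the mean and SD of 3. The left ratio is 7.71 to 8.20 in OIR P29, 5.80 to 6.21 in OIR P14 and 5.89 to 5.95 in sham P14. The right ratio is 179 to 213 in OIR P29, 180 to 254 in OIR P14 and 223 to 298 in sham P14.

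The difference between the folds of the paralogs was set beside that of other same-seed relatives. Among the miRNAs tested, 15 pairs had the same seed, the same length and a single base different, some sharing a member. The log2 folds of miR-101a-3p and miR-101b-3p differed by 0.41 at P29, the 8th largest difference of the 15. Among all 137 pairs with the same seed they were 60th, beside a median of 0.31. Partners further apart included miR-7a-5p and miR-7b (2.06), miRNAs of neurons and endocrine cells, and miR-29a-3p and miR-29c-3p (1.08), which repress collagen genes. At P14 the miR-101 partners differed by 0.01, beside a median of 0.10 over the 15 pairs.

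**Figure D5:**
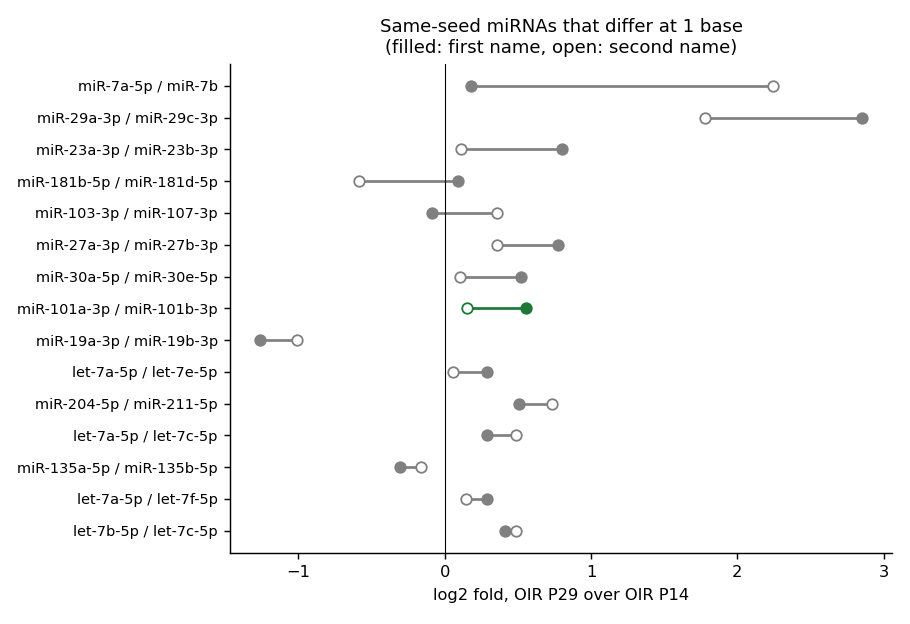
Log2 fold of OIR P29 over OIR P14 (horizontal axis) for the 15 pairs of miRNAs with the same seed and 1 different base (vertical axis, ordered by the distance between partners). Filled points are the first name and open points the second. The miR-101 pair, in green, stands at 0.56 for miR-101a-3p and 0.15 for miR-101b-3p and is 8th from the top.

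The arms of the Mir101a hairpin were used very unequally. miR-101a-3p had 213, 191 and 179 counts for each count of miR-101a-5p in OIR P29 libraries 20, 21 and 47. The ratio was 254, 241 and 180.1 in OIR P14 libraries 11, 12 and 38, and 223, 231 and 298 in sham P14 libraries 25, 27 and 51. OIR P14 overlapped both other groups, with means of 194 ± 17.1 in OIR P29, 225 ± 39.5 in OIR P14 and 251 ± 41.3 in sham P14 (SD, n = 3 each). As a log2 ratio, OIR P29 differed from OIR P14 by -0.20, against a spread of 0.21 within groups. OIR P29 and sham P14 differ in both age and retinopathy. Among 143 hairpin names with both arms measured, the larger arm exceeded the smaller by a median of 12.2-fold in OIR P29, 13.2-fold in OIR P14 and 11.9-fold in sham P14. By the size of that imbalance Mir101a was 24th in OIR P29, 18th in OIR P14 and 17th in sham P14.

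The miRNAs whose pattern over the 9 libraries was most like each member were found by the root mean square difference of log2 CPM after subtracting each miRNA's mean, among 246 others with a mean of at least 10 CPM. For miR-101a-3p they were miR-328a-3p (0.0693), miR-3068-3p (0.0804) and miR-22-3p (0.0813), where the median over the 246 was 0.364. miR-328a-3p averaged 110.1 ± 5.30 CPM in OIR P29 and 74.9 ± 2.77 CPM in OIR P14, and miR-22-3p averaged 8855 ± 203 CPM in OIR P29 and 5614 ± 389 CPM in OIR P14 (SD of 3 libraries). For miR-101a-5p they were miR-211-5p (0.113), a miRNA of pigment epithelium, miR-99a-5p (0.166) and miR-22-3p (0.168). For miR-101b-3p they were miR-21-5p (0.0528), miR-140-3p (0.0663) and miR-30e-5p (0.0777). miR-21-5p, a miRNA linked to injury, averaged 1351 ± 23.1 CPM in OIR P29 and 1209.9 ± 61.7 CPM in OIR P14 (SD of 3 libraries). The paralogs lay 0.197 from each other, below the median over the 246 for both miR-101a-3p (0.364) and miR-101b-3p (0.256). The neighbours are the nearest of the 246 by construction, so no conclusion is drawn from the paralogs lying farther apart than they do.

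miR-144-3p, the seed relative, was rare. It had 73, 39 and 40 counts in the OIR P29 libraries, 6, 5 and 9 in the OIR P14 libraries and 5, 31 and 27 in the sham P14 libraries. Its log2 fold at P29 was 2.72 ± 0.41 SE. It passed the filter on low counts there only through its OIR P29 counts. A call could therefore only be a rise, and no p-value is given for it. Its mean of 3.53 CPM in OIR P29 is small beside the 2175 CPM of miR-101a-3p in the same group. At P14 the filter on low counts left it out.

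Other miRNAs reported to repress the same targets were taken as lists, without the miR-101 members. Of 16 tested on the Ezh2 list, 5 rose and 2 fell in OIR P29 against OIR P14 and 9 were not called, 7 of 16 in all where 46.7% of all miRNAs were called. The riser with the largest edgeR adjusted p (0.0492) was miR-137-3p, at means of 4.01 CPM in OIR P29 and 2.39 CPM in OIR P14. It was called by limma-voom but not by DESeq2, nor by edgeR without the filter on low counts. Over 14 alternatives, 6 to 13 members of the list were called. The median log2 fold of the list was 0.17 beside -0.01 over all miRNAs. let-7c-5p, of a family that rises as cells mature, rose to 1706 ± 97.1 CPM in OIR P29, against 1199 ± 50.8 CPM in OIR P14 (SD, n = 3 each; log2 fold 0.49 ± 0.07 SE, edgeR adjusted p = 0.0015). let-7b-5p (log2 fold 0.41 ± 0.07, edgeR adjusted p = 0.00282) and miR-26a-5p (0.47 ± 0.09, 0.00381) also rose. With TMM scaling the other let-7 entries of the list (let-7a-5p, let-7d-5p, let-7e-5p, let-7f-5p and let-7i-5p) and miR-98-5p were not called. Their log2 folds ran from -0.02 for miR-98-5p to 0.29 for let-7a-5p. miR-25-3p, from the cluster of the proliferation-linked miR-106b, fell to 644 ± 22.4 CPM in OIR P29, against 1059 ± 84.3 CPM in OIR P14 (SD, n = 3 each; log2 fold -0.74 ± 0.09, edgeR adjusted p = 7.5e-04). With libraries scaled on their totals alone, 13 of the 16 were called, 11 higher and 2 lower, where 47.4% of all miRNAs were called, 34.9% higher and 12.5% lower.

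On the Ptgs2 list 3 of 6 tested rose at P29, 1 fell and 2 were not called, where 46.7% of all miRNAs were called, 22.9% higher and 23.8% lower. The list had a median log2 fold of 0.31 beside -0.01 over all miRNAs. The risers were miR-143-3p of mural cells (log2 fold 1.79 ± 0.22, edgeR adjusted p = 7.5e-04), miR-144-3p and miR-26b-5p (0.37 ± 0.07, 0.0041). Of these, miR-144-3p passed the filter on low counts only through OIR P29, so it could be called only as a rise. It enters both the count and the median of the list. miR-16-5p, a miRNA that slows the cell cycle, fell (-0.63 ± 0.09, edgeR adjusted p = 0.00129). On the Vegfa list 4 of 13 tested rose, 4 fell and 5 were not called, beside the same shares of all miRNAs, with a median of 0.23 beside -0.01. The leading members were miR-29b-3p, which rose (log2 fold 2.93 ± 0.20, edgeR adjusted p = 5.35e-05), and miR-15b-5p, miR-93-5p and miR-16-5p, which fell (-1.32, -1.36 and -0.63, with edgeR adjusted p from 2.53e-04 to 0.00129). miR-16-5p is on both of these lists, and miR-26b-5p is on the Ezh2 and Ptgs2 lists.

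At P14 the lists held few calls, as did the whole table, where edgeR called 7 of 415 miRNAs (1.69%), all lower. edgeR, DESeq2 and limma-voom each called 0 of 16 members of the Ezh2 list, and 1 of them, let-7c-5p, had an unadjusted p under 0.05 in edgeR (log2 fold -0.37 ± 0.14). The median of the list was -0.17 beside -0.03 over all miRNAs. On the Ptgs2 list miR-143-3p fell (log2 fold -1.46 ± 0.22, edgeR adjusted p = 0.0112), 1 of 5 tested, with a median of -0.30. On the Vegfa list miR-126a-3p of endothelial cells fell (-1.63 ± 0.21, edgeR adjusted p = 0.00651), 1 of 13 tested, with a median of -0.03. Both calls were lost without sham P14 library 27 and without sham P14 library 51, at folds of the same sign.

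Markers of several cell types differed between the same groups as miR-101a, and in bulk retina fewer cells of a type and less RNA per cell cannot be told apart. The markers listed for glia were miR-29a-3p and miR-29c-3p, and whether their level follows glia was not tested. Their sum was 1029 to 1163 CPM in OIR P29, 218 to 252 CPM in OIR P14 and 172 to 315 CPM in sham P14. The 2 pigment epithelium markers summed to 31154 to 35605 CPM in OIR P29, 18390.3 to 23989 CPM in OIR P14 and 12362 to 19708 CPM in sham P14. The 2 mural cell markers summed to 1475 to 1541 CPM in OIR P29, 297 to 603 CPM in OIR P14 and 1156 to 1288 CPM in sham P14, and the 2 endothelial markers to 480.02 to 535 CPM in OIR P29, 165 to 304 CPM in OIR P14 and 629.7 to 728 CPM in sham P14. The 4 leukocyte markers summed to 68.4 to 81.3 CPM in OIR P29, 37.1 to 55.7 CPM in OIR P14 and 45.3 to 57.8 CPM in sham P14. Photoreceptor markers went the other way, at 608874 to 640745 CPM in OIR P29, 720036 to 886389 CPM in OIR P14 and 674962 to 736675 CPM in sham P14. The 3 neuron markers overlapped between all groups, at 14169 to 15090 CPM in OIR P29. They summed to 13988 to 17100 CPM in OIR P14 and 14506 to 16266.5 CPM in sham P14. Red blood cell markers summed to 1065 to 1155 CPM in OIR P29, 988 to 1022 in OIR P14 and 1046 to 1201 in sham P14. Muscle and surface epithelium markers overlapped between OIR P29 and OIR P14. Of the 3 muscle markers only 1, miR-133a-3p, was among the miRNAs measured. No measured marker of these types was at 0 in any group. The endothelial and mural sums were lower in OIR P14 than in sham P14. The part of cell makeup in the level of miR-101a at P29 was not tested.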

How the data were processed

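Per the labels' protocols, total RNA including miRNA was isolated from dissected retina with a miRNeasy kit and sequenced. The authors deposited 2 tables of raw read counts per mature miRNA, 1 per comparison, each with a log2 fold and a false discovery rate (an adjusted p-value) per miRNA, per the file headers. limma is named per the submitters' processing notes. Not given in the sources used here: trimming, aligner, counter, build and filters.

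The 12 count columns hold 9 libraries, since the OIR P14 codes stand in both tables with 1395 of 1395 counts identical. Columns carry codes only: codes in both tables are OIR P14, the others belong to the group that their table adds. Replicates of a group differed by far more than sampling noise (chi-square over its degrees of freedom 75.6 to 223).

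Each comparison was fitted on its 6 libraries with edgeR 4.0.16 under R 4.3.3 (TMM scaling, filterByExpr at min.count 10 and min.total.count 15, quasi-likelihood test, Benjamini-Hochberg adjustment over all miRNAs, called under 0.05). The fit left 415 miRNAs at P14 and 424 at P29, and all 3 members passed. The SE was taken as the log2 fold divided by the root of its F statistic, and intervals are 95%. CPM values use 1 TMM scaling of all 9 libraries. p-values cover the spread between libraries only. DESeq2 1.42.0 and limma 3.58.1 (voom) were alternatives, with other scalings, no filter, all 9 libraries together and each library left out. The members, lists and named miRNAs (the members, seed relatives, 3 pattern neighbours per member and up to 4 list members with the smallest p) were chosen with earlier results of these data known. The partner pairs named beside miR-101 were chosen after their values were seen.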

Additional observations from a re-analysis of the deposited data

How the results depend on the processing

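Of 84 recomputed folds of members, 75 moved by less than the spread between libraries of a group, and the other 9 are among the values here. Under scaling on library totals alone the log2 folds at P29 were 0.83 (miR-101a-3p), 1.01 (miR-101a-5p) and 0.42 (miR-101b-3p), those at P14 -0.19 (miR-101a-3p) and -0.20 (miR-101b-3p), and 13 members of the Ezh2 list were called at P29. That scaling shifts all miRNAs by its construction. DESeq2 called 14 miRNAs at P14, where edgeR called 7, and the cause was not tested. Leaving out each library in turn gave log2 folds at P29 from 0.50 to 0.63 for miR-101a-3p and from 0.10 to 0.23 for miR-101b-3p, which stood at 0.21 without OIR P29 library 21 and at 0.21 without OIR P29 library 47. At P14 it gave 1 to 7 calls in all, 0 to 2 on the Ptgs2 list, where miR-144-3p was added without sham P14 library 25, and 0 to 1 on the Vegfa list. Without that library miR-144-3p passed the filter on low counts only through sham P14, so it could be called only as lower in OIR P14. The count over all miRNAs was 1 without sham P14 library 27 and 1 without sham P14 library 51, and both lists then held 0 calls. Calls at P29 ran from 170 to 202 over 14 alternatives. Scaling on totals made 73.6% of the P29 calls higher, against 49.0% with TMM. No paired analysis was possible because the count columns carry no replicate numbers of the labels. Depth limits miR-101a-5p most, at 59 to 182 counts per library.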
